A study of Bos taurus with 34 samples.

Results

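The genes described here are 9 interferon sensors, receptors and transcription factors of cattle liver: the RNA sensors IFIH1, DDX58 and DHX58, the receptor subunit IFNAR1, the signal transducer STAT2, and the factors IRF9, IRF1, IRF3 and IRF7. They were chosen by symbol, and all 9 were found among the 14161 genes of the authors' deposited table that compares SLICK with FREE liver. All 34 samples of the study are cattle liver, and the groups differ in the SLICK allele of PRLR, the prolactin receptor gene. In the TruSeq experiment SLICK daughters carried 1 copy of the allele (10 samples, 5 by the bull Blanco and 5 by Lone Ranger) and FREE daughters carried 0 copies (8 samples, 7 by Lone Ranger and 1 by Blanco). A further 16 samples carried 1 copy (S1, 5 samples) or 2 copies (S2, 11 samples) and were made with the SMARTer kit. The library columns of the tables bear animal names that no sample label holds, so no library could be tied to a group, no value per library or depth is given, and S2 against S1 is not analysed here. All results below therefore compare SLICK with FREE through the authors' deposited table, whose name sets slick over free. The bulls are unevenly spread over the genotypes and the terms of the authors' model are not stated, so allele and sire cannot be told apart in that comparison. Lone Ranger had daughters of both genotypes, but no library could be tied to them, so no comparison within his daughters was made.

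Type I interferon signalling starts when a cell detects viral nucleic acid. The helicases DDX58 (RIG-I) and IFIH1 (MDA5) bind viral RNA in the cytosol and signal through MAVS at the mitochondrion, and DHX58 (LGP2), which lacks the signalling domains, modulates both. The kinases downstream phosphorylate IRF3, which is present in resting cells, and IRF7, and both then switch on interferon genes. Secreted interferon binds IFNAR1 and IFNAR2, the Janus kinases JAK1 and TYK2 activate STAT2, which works with IRF9 in the complex ISGF3. ISGF3 drives the interferon-stimulated genes, which include IRF7 and the sensors themselves. IRF1 is an early factor that is best known downstream of interferon gamma.

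All 9 genes had a log2 fold change below 0 in the authors' deposited table, and none passed an adjusted p of 0.05. That threshold was passed by 0.501% of all genes in the authors' deposited table, and by 0.41% in the lower direction. At an unadjusted p under 0.05, 6 of the 9 genes were lower in SLICK and 0 were higher, beside 8.79% of all genes lower and 7.22% higher. The 6 were the 3 sensors, IRF7, IRF9 and IRF3. At an adjusted p under 0.10, the 3 sensors and IRF7 were lower, which makes 4 of the 9 genes beside 1.94% of all genes. The median log2 fold change of the 9 genes was -0.46, beside -0.01 over all genes, of which 51.8% were below 0. The largest differences were those of IRF7 and the 3 sensors, at 39.9% to 53.9% of the FREE level, whereas IFNAR1 and STAT2 were at 97.0% and 90.4%. In whole liver, fewer cells of a type and less RNA per cell cannot be told apart.

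**Figure D1:**
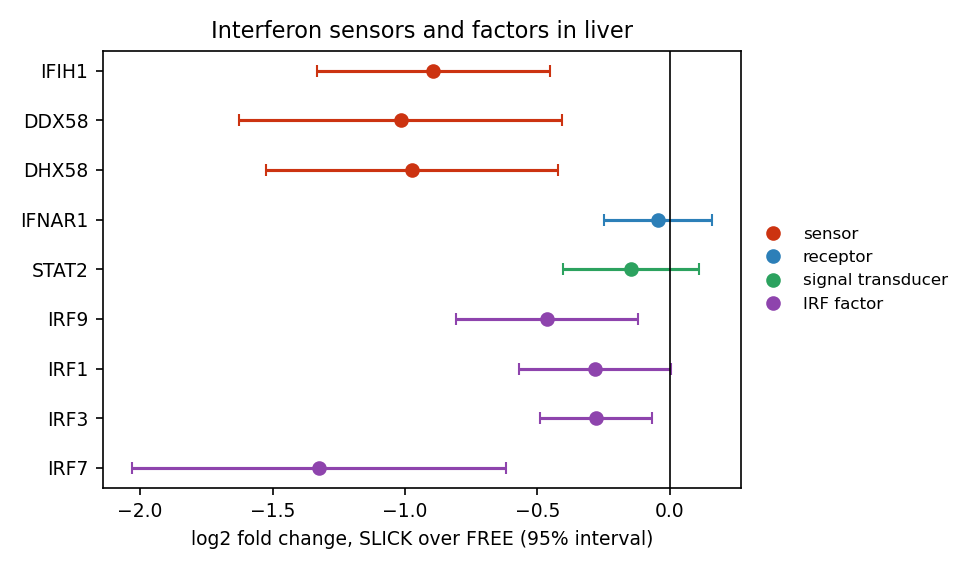
Log2 fold change of SLICK over FREE liver for each of the 9 genes (point) with its 95% interval (bar), as implied by the F statistic of the authors' deposited table. Colour marks the role. The intervals of the 3 sensors, IRF9, IRF3 and IRF7 lie below 0, and those of IFNAR1, STAT2 and IRF1 include 0.

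The RNA sensors formed a narrow group. IFIH1, which senses long double-stranded RNA, lies on chromosome 2 of ARS-UCD1.2 from 34111730 to 34166890 on the + strand (ENSBTAG00000008142). Its log2 fold change was -0.89 in the authors' deposited table, with p = 4.49e-04 and an adjusted p of 0.0599. The standard error implied by the deposited F was 0.21, and the 95% interval ran from -1.33 to -0.45, or from 39.7% to 73.1% of the FREE level. IFIH1 had the smallest p of the 9 genes and ranked 113 of 14161. DDX58, which senses short RNA with a 5′ triphosphate, lies on chromosome 8 from 11559625 to 11604095 on the + strand (ENSBTAG00000003366). In the authors' deposited table DDX58 had a log2 fold change of -1.02 (implied standard error 0.29, p = 0.00246, adjusted p = 0.0979). DDX58 thus stood at 49.4% of the FREE level, with an interval of 32.4% to 75.4%. DHX58 lies on chromosome 19 from 42237031 to 42247670 on the - strand (ENSBTAG00000046580). DHX58 had a log2 fold change of -0.97 by the authors' deposited table (implied standard error 0.26, p = 0.00155, adjusted p = 0.0876). Its level was 50.9% of that in FREE, with an interval of 34.7% to 74.6%. The 3 sensors spanned only -1.02 to -0.89, which is less than the implied standard error of any of them, so no order among them can be read.

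The receptor and the signal transducer had values nearer 0. IFNAR1, the low-affinity chain of the type I interferon receptor, lies on chromosome 1 from 2189895 to 2218344 on the - strand (ENSBTAG00000021819). Its log2 fold change was -0.04 in the authors' deposited table, with an implied standard error of 0.10, p = 0.660 and an adjusted p of 0.889. The 95% interval ran from -0.25 to 0.16, so a level between 84.2% and 112% of FREE was compatible with the deposited F. STAT2, the STAT that carries the activation domain of ISGF3, lies on chromosome 5 from 56997911 to 57009477 on the + strand (ENSBTAG00000004380). For STAT2 the authors' deposited table gave a log2 fold change of -0.15, with an implied standard error of 0.12, p = 0.247 and an adjusted p of 0.633. Its interval ran from -0.40 to 0.11. The intervals of all 3 sensors and of IRF7 lay below those of STAT2 and IFNAR1, although by a small margin for DDX58, whose upper bound of -0.41 was just under the lower bound of STAT2 at -0.40. These values come from the same animals and the differences between genes were not tested.

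The 4 IRF factors ranged from -1.32 to -0.28. IRF7, the factor that amplifies the interferon alpha response, lies on chromosome 29 from 50695300 to 50698405 on the + strand (ENSBTAG00000047680). Its log2 fold change of -1.32 by the authors' deposited table was the largest of the 9 genes in size (p = 9.31e-04, adjusted p = 0.0761). The implied standard error was 0.34 and the interval ran from -2.03 to -0.62, or 24.5% to 65.2% of the FREE level. IRF9, the DNA-binding subunit of ISGF3, lies on chromosome 10 from 20986934 to 20992851 on the - strand (ENSBTAG00000005816). Its log2 fold change was -0.46 in the authors' deposited table (implied standard error 0.16, p = 0.0108, adjusted p = 0.169). IRF9 stood at 72.5% of the FREE level, with an interval of 57.2% to 92.0%.

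IRF3 and IRF1 had nearly equal fold changes and different errors. IRF3 lies on chromosome 18 from 56062452 to 56068031 on the - strand (ENSBTAG00000006633), and IRF1 on chromosome 7 from 21938614 to 21946679 on the + strand (ENSBTAG00000031231). For IRF3 the log2 fold change was -0.28 in the authors' deposited table, with an implied standard error of 0.10, p = 0.0124 and an adjusted p of 0.177. For IRF1 it was also -0.28 in the authors' deposited table, with an implied standard error of 0.14, p = 0.0539 and an adjusted p of 0.335. Both stood at 82% of the FREE level to the nearest percent, and the interval of IRF1 (67.4% to 100.4%) contained that of IRF3 (71.2% to 95.4%). The interval of IRF7 lay below those of IRF1 and IRF3 and overlapped that of IRF9.

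The spread of the difference differed among the 9 genes, from an implied standard error of 0.10 (IFNAR1) to 0.34 (IRF7). This error joins variation between animals with counting error and cannot show which animals were high or low. Among genes of like average level (all genes split by level into 10 equal groups), the error of IRF7 was at percentile 98.9, that of DDX58 at 98.2, that of DHX58 at 97.5 and that of IFIH1 at 96.0. The typical gene of those levels had an implied standard error of 0.08 or 0.09. IRF9 (percentile 91.2) and IRF1 (86.4) were also above the middle of their level group. IRF3 (67.1), STAT2 (65.8) and IFNAR1 (63.9) were the least far from it. The 4 genes with the largest differences were thus also the 4 with the largest errors.

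**Figure D2:**
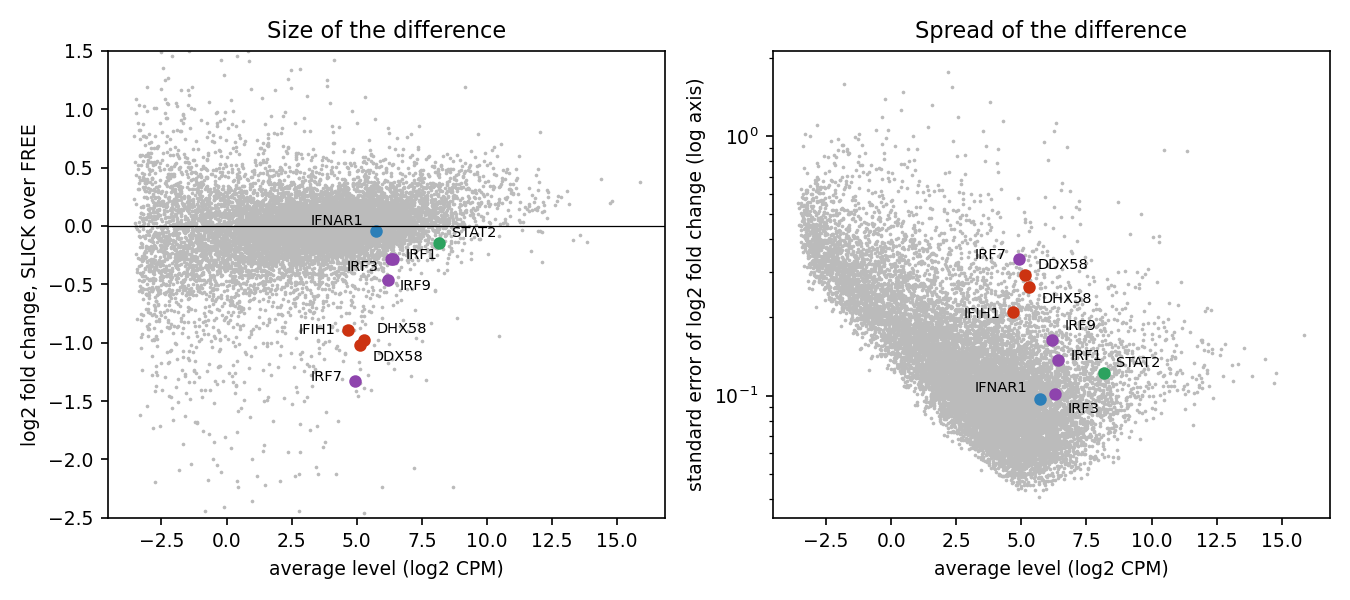
Every gene of the authors' deposited table (grey) by its average level, against its log2 fold change (left) and the implied standard error of that fold change on a log axis (right), with the 9 genes in colour by role as in the plot of their intervals. The left axis leaves out 30 grey genes, and IRF7, DDX58, DHX58 and IFIH1 stand low on the left and high on the right for their level.

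Levels were compared per length, as the average log2 CPM of the authors' deposited table less the log2 of the gene's exonic length in kb. STAT2 was the highest of the 9 at 6.41 log2 CPM per kb, at percentile 94.9 of all genes, and IRF3 followed at 5.68. IRF1 (4.79) and IRF9 (4.73) were close together, as were IFNAR1 (4.001) and IRF7 (3.93). The sensors were the lowest, with DHX58 at 3.68, DDX58 at 3.53 and IFIH1 at 3.01 log2 CPM per kb, the last at percentile 63.6. These are averages over the libraries of the comparison with no spread deposited, so neighbours in this order were not tested. The 4 genes lowest per length were also the 4 with the largest log2 fold changes in size.

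**Figure D3:**
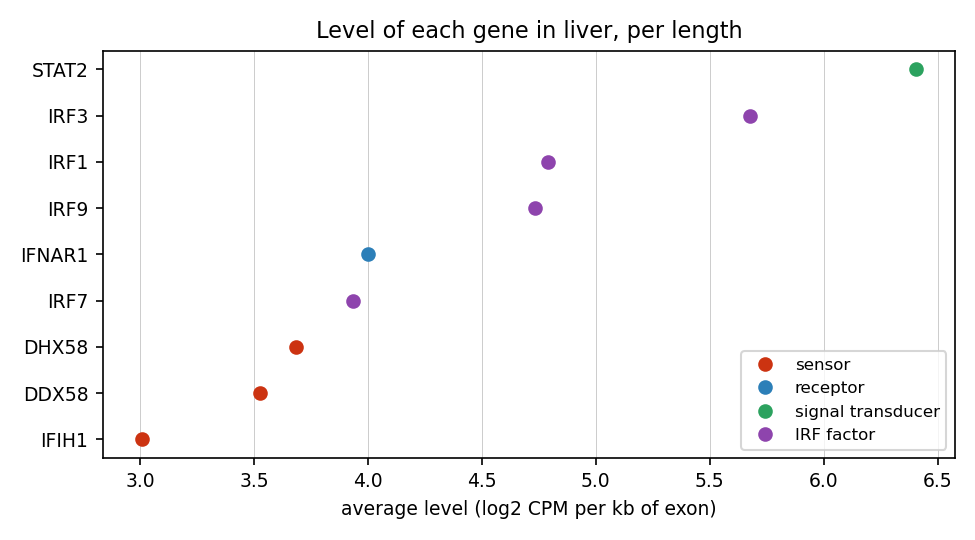
Average level of each of the 9 genes in log2 CPM per kb of exon, over the libraries of the authors' comparison, coloured by role. STAT2 is the highest at 6.41 and IFIH1 the lowest at 3.01.

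The other genes of RNA sensing differed less than the sensors. Of 25 genes of cytosolic RNA sensing, 0 passed the adjusted p, 8 were lower and 1 was higher at an unadjusted p under 0.05, and the list median was -0.08. Over all genes 8.79% were lower and 7.22% higher at that bound, and the same shares stand beside the counts of every list below. Beside the sensors, the lower ones were the adaptor TRAF3, with a log2 fold change of -0.36 by the authors' deposited table, and the TBK1 adaptor AZI2, with -0.21. The remaining 3, named after their values were seen, were the RIG-I ubiquitin ligase TRIM25 (-0.30), the kinase IKBKE (-0.31) and the feedback deubiquitinase TNFAIP3 (-0.42) in the authors' deposited table. TKFC, a triokinase known as an inhibitor of IFIH1, was the higher one at 0.57 (p = 0.00372, adjusted p = 0.112) in the authors' deposited table, and was likewise named after its value was seen. MAVS, on which both sensors converge, had -0.17 (p = 0.0738) and the kinase TBK1 had 0.01 (p = 0.890) in the authors' deposited table.

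Receptors and Janus kinases gave the smallest values. Of 10 such genes, 0 passed the adjusted p and 0 had an unadjusted p under 0.05, and the log2 fold changes lay between -0.07 and 0.07 with a median of -0.03. IFNAR2, the partner of IFNAR1, had -0.02 (interval -0.19 to 0.15) in the authors' deposited table. JAK1 had 0.04 (-0.12 to 0.19) and TYK2 had -0.03 (-0.15 to 0.10) in the authors' deposited table. For the interferon gamma receptor chains, IFNGR2 had -0.06 and IFNGR1 had 0.07, and IL10RB had -0.07 in the authors' deposited table. The smallest p among these 10 genes was 0.363.

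The STAT genes that act downstream of the prolactin receptor were read beside STAT2. STAT5B had a log2 fold change of 0.14 (p = 0.0873) and STAT5A of -0.10 (p = 0.0949) by the authors' deposited table, and neither passed the adjusted p.

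Of 12 genes of the IRF list, which includes 3 IRF2-binding proteins, 0 passed the adjusted p and 3 were lower at an unadjusted p under 0.05, namely IRF7, IRF9 and IRF3. The median was -0.09. IRF2, a factor that competes with IRF1, had -0.06 in the authors' deposited table. IRF5, a factor of macrophages and dendritic cells, had 0.01 and the myeloid factor IRF8 had -0.06 in the authors' deposited table, with p from 0.615 to 0.933.

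Feedback inhibitors and effectors of the response are given for comparison. Of 15 feedback inhibitors, 0 passed the adjusted p, 5 were lower and 0 higher at an unadjusted p under 0.05, and the median was -0.16. USP18, which blocks IFNAR2 signalling, had a log2 fold change of -1.28 by the authors' deposited table (implied standard error 0.36, p = 0.00226, adjusted p = 0.0945), close to that of IRF7. SOCS1 had -1.002 in the authors' deposited table at an average of only -1.97 log2 CPM, and SOCS3 had -0.68. Of 33 measured genes of the effector list, 5 fell by the adjusted p, 31 were lower at an unadjusted p under 0.05, and the median was -1.11. Those that fell were HERC6 (-2.46), ISG20 (-1.88), the first of a pair of GBP4 genes (-1.59), OAS1Z (-1.71) and ADAR (-0.57) in the authors' deposited table, of which OAS1Z and ADAR were named after their values were seen. OAS1Z and GBP4 have close paralogs, and reads shared among copies may make their values uncertain. IRF7, the sensors, IRF9, IRF3 and IRF1 had fold changes within the range of the effector list (-2.76 to -0.18). IFNAR1 and STAT2 lay above its upper end. The effector at that end had an interval of -1.44 to 1.08, which includes the values of both, so the contrast is not a firm one.

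**Figure D4:**
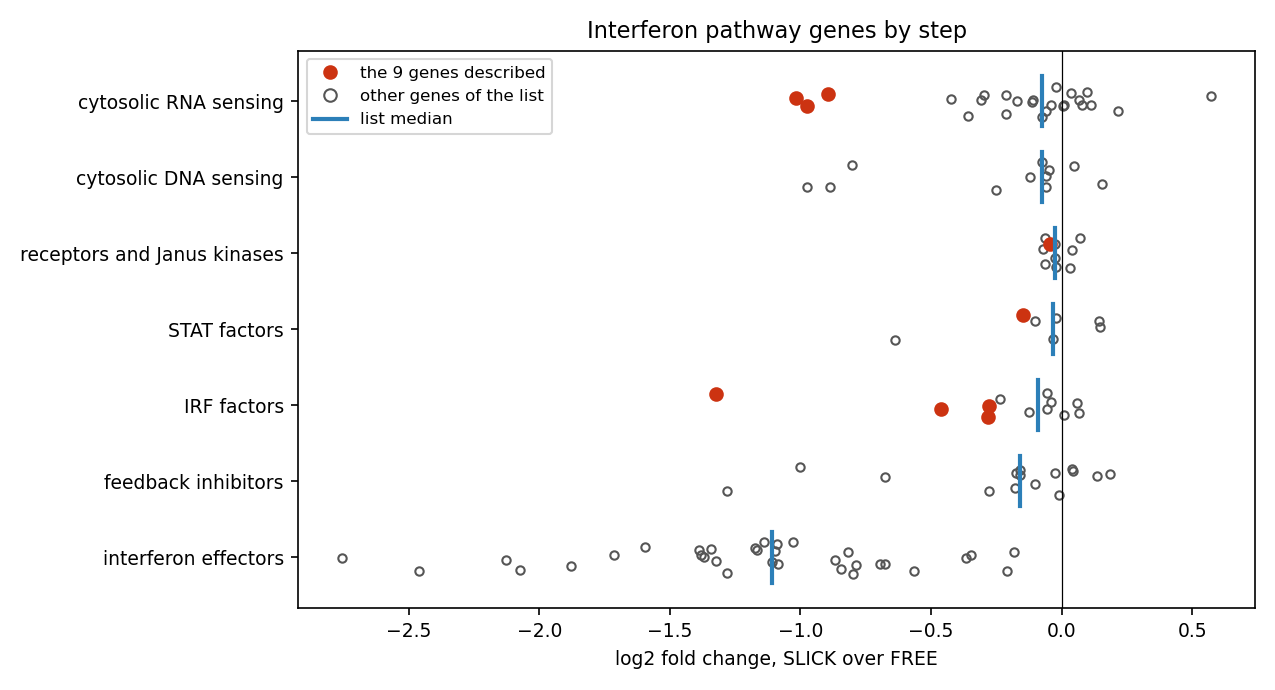
Log2 fold change of SLICK over FREE liver for the genes of 7 interferon pathway lists, 1 row a list (the interferon gamma targets are not drawn), with the 9 genes filled in red, the other genes as open circles and the list median as a blue bar. The effector median lies at -1.11, and every gene of the receptor and Janus kinase row lies between -0.07 and 0.07.

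The nearest measured genes on the chromosome were examined on each side of the 9 genes. Of these 18 neighbours, 1 passed the adjusted p, 3 were lower and 2 higher at an unadjusted p under 0.05, and their median log2 fold change was -0.07. Over all genes 0.501% passed the adjusted p, and 8.79% were lower and 7.22% higher at the unadjusted bound. The neighbours are too few to be told from these shares. The gene that passed was REC8, a meiotic cohesin subunit that lies 4523 bases from IRF9 on the same strand. REC8 had a log2 fold change of -4.39 by the authors' deposited table (adjusted p = 0.0486). BCL2L12, which starts 136 bases from IRF3 on the opposite strand, had -0.41 (p = 0.00120, adjusted p = 0.0841) in the authors' deposited table, beside -0.28 for IRF3. CDHR5, a protocadherin-like gene that ends 992 bases before IRF7 on the same strand, had -0.98 (p = 0.0182, adjusted p = 0.207) in the authors' deposited table. The higher neighbours were ACO1 beside DDX58 (0.24, p = 0.00454) and RAD50 beside IRF1 (0.18, p = 0.0231) in the authors' deposited table. KAT2A, only 279 bases from DHX58, had -0.16 (p = 0.161) in the authors' deposited table.

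On either side of IFNAR1 lie IL10RB and IFNGR2, receptor genes of the same cluster, whose values of -0.07 and -0.06 are given above. Overlap with another annotated gene affected 3 of the 9 genes. IRF9 shares 335 bases with RNF31 on the same strand, IRF7 shares 207 bases with PHRF1 on the opposite strand and STAT2 shares 90 bases with IL23A on the opposite strand. RNF31 had a log2 fold change of -0.17, PHRF1 of -0.02 and IL23A of 0.17 in the authors' deposited table, with p from 0.106 to 0.780. IRF9 and RNF31 are on the same strand, so no strand setting could separate their reads. For IRF7 and STAT2, the strand setting used to count the TruSeq libraries is not stated. Reads in these overlaps may therefore make IRF9, IRF7 and STAT2 uncertain.

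**Figure D5:**
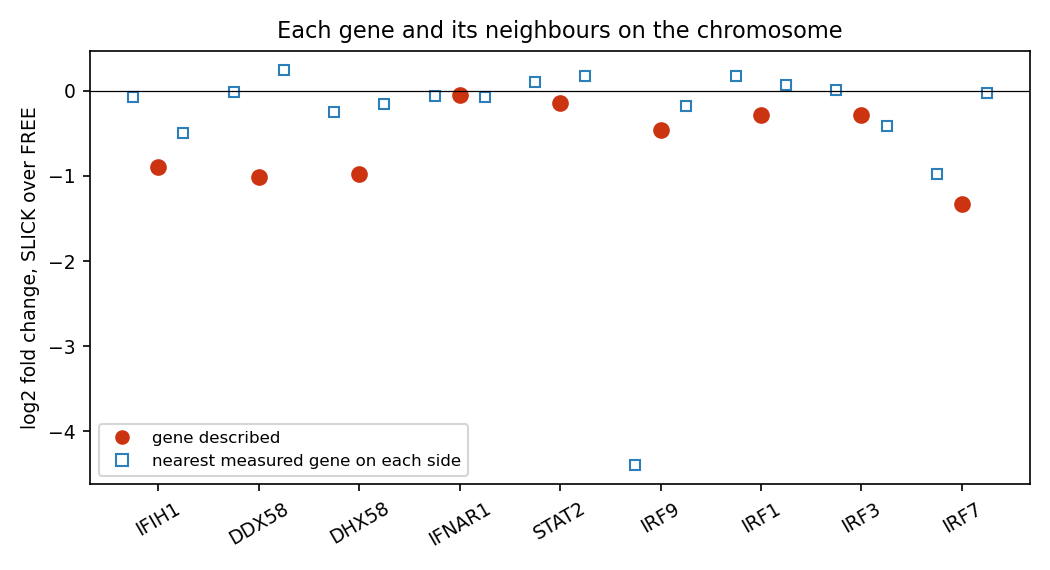
Log2 fold change of SLICK over FREE liver for each of the 9 genes (red) and for the nearest measured gene on its left and right (blue squares). REC8, to the left of IRF9, lies at -4.39, and neighbours of the 3 sensors lie between -0.49 and 0.24.

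Markers of liver cell types were read beside these values. Hepatocyte markers were at a high level, as the label liver calls for, with ALB at 15.87 average log2 CPM in the authors' deposited table. Of 16 hepatocyte markers 4 were higher and 0 lower at an unadjusted p under 0.05 (median 0.18), among them CYP2E1 (0.81) and APOC3 (0.46) in the authors' deposited table. Of 10 cholangiocyte markers 6 were lower and 0 higher (median -0.56), led by CLDN4 (-1.67) and SPP1 (-2.44) in the authors' deposited table. Of 14 macrophage markers 1 was lower and 0 higher (median 0.06), CD68 at -0.28 in the authors' deposited table. Of 9 dendritic cell markers 2 were lower and 2 higher (median -0.01), with CD1E at -1.20 and BATF3 at 0.33 in the authors' deposited table. CD1E averaged only -0.27 log2 CPM. Among the 6 dendritic cell markers that averaged at least 0 log2 CPM, 0 were lower and 2 higher (median 0.08). Of 16 T and NK cell markers 0 were lower and 0 higher (median 0.00). Of 11 B and plasma cell markers 3 were lower and 0 higher (median 0.01), and BLNK fell by 0.77 on the log2 scale in the authors' deposited table (adjusted p = 0.0486). Of 9 neutrophil markers 2 were lower and 0 higher (median -0.17), and of 12 endothelial markers 0 were lower and 1 higher (median 0.12). The part of these cell types in the values of the 9 genes was not tested.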

How the data were processed

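Liver RNA was sequenced from TruSeq or SMARTer libraries, per the labels. Per the submitters' processing notes, the tools were HISAT2 2.1.0, Subread with featureCounts, and edgeR, on the build ARS-UCD1.2, and no role or order is stated. The SMARTer table was counted with featureCounts 1.6.2 on Ensembl release 100 models, per the file headers. The 4 tables hold 70 library columns whose names match no label, and none was used. Of the 18 libraries that the comparison table names, 17 are also in the TruSeq count table.

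For each gene the authors deposited the p-value (raw and adjusted), the F score, the log2 fold change and the level as average log2 CPM, per the file headers. Of 14246 rows, 85 that repeat a gene were left out. Standard errors were computed as the size of the fold change over the root of F. The intervals (95%) used the 18.7 denominator degrees of freedom that F and p imply, checked in 487 genes; they are approximate. The arithmetic was tested on simulated data that were built with this same form of error. That test cannot show whether the intervals hold for the deposited values. The deposited p-values set each difference against the spread between these samples, which are daughters of Blanco and Lone Ranger only. Gene length, position and strand came from the annotation columns of the count tables.

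The 9 genes, the 8 pathway lists and the 8 cell type lists were chosen with earlier results of these data known, so no list was tested. Named were the 9 genes, a fixed set of 12 pathway genes, the 3 pathway genes and up to 2 markers with the smallest p per list, and the nearest measured gene on each side. A gene that this rule took is not reported here. A planned search of promoter motifs was not run, and no sequences were used here. Alternatives were other adjustments, filters, thresholds and centrings. Python 3.11.15, pandas 2.3.3, numpy 2.4.6, scipy 1.17.1 and matplotlib 3.10.9 were used.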

Additional observations from a re-analysis of the deposited data

How the results depend on the processing

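With the adjusted p threshold at 0.10 in place of 0.05, 4 of the 9 genes passed (IFIH1, DDX58, DHX58 and IRF7), beside 1.94% of all genes lower at that bound, and 392 genes passed in all against 71. Recomputing the adjustment over the genes kept, with repeated rows kept, or over genes with an average of at least 0 or 2 log2 CPM left 0 of the 9 genes past 0.05, with the smallest adjusted p among them, that of IFIH1, between 0.0557 and 0.0606. In all, 90 genes passed with the adjustment recomputed over the genes kept or with repeated rows kept, 77 with the bound of 0 and 46 with the bound of 2 log2 CPM, against 71 by the deposited adjustment. Centring on the median of all genes or of genes of like level kept the direction and the call of each of the 9 genes in all 18 cases, and moved a fold change by at most 0.10. At an unadjusted p under 0.01, 4 genes were lower, and a normal quantile put the intervals of 7 genes below 0 against 6. The share of all genes was not taken at either of these settings, so the counts have no background to be read against. The median of the 9 genes was -0.46 and -0.49 under the 2 centrings, and their mean was -0.60. The planned promoter motif alternatives were not run. No paired analysis was possible because the library columns carry no replicate numbers of the labels, and for the same reason no library could be left out. Depth per library is not given here, so the precision of a value is known only through the deposited F and p.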

Other observations

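Sensors of cytosolic DNA were read from a list of 14 genes, of which 11 were measured. At an unadjusted p under 0.05, 3 were lower and 0 higher, and 0 passed the adjusted p. The 3 were IFI16, with a log2 fold change of -0.89, CGAS, the synthase of cyclic GMP-AMP, with -0.98, and the Z-nucleic acid sensor ZBP1, with -0.80 in the authors' deposited table. None had an adjusted p under 0.0876 (the largest was 0.154), and CGAS averaged only -0.25 log2 CPM. STING1, the adaptor that CGAS signals through, had -0.06 (p = 0.597) in the authors' deposited table, and the median of the list was -0.08.

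Targets of interferon gamma were read from a list of 18 symbols, of which 16 were measured. At an unadjusted p under 0.05, 8 were lower and 0 higher, 0 passed the adjusted p, and the median was -0.32. Among the 14 that averaged at least 0 log2 CPM, 6 were lower and 0 higher (median -0.22). SOCS1 is also in the list of feedback inhibitors, and without it 7 of 15 were lower (median -0.23). The chemokine CXCL10 had a log2 fold change of -1.06 (p = 0.00111, adjusted p = 0.0791) and the immunoproteasome subunit PSMB8 had -0.43 (p = 0.00427, adjusted p = 0.115) in the authors' deposited table.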
